A study of Bos taurus with 15 samples.

Results

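The genes of cholesterol synthesis, uptake and efflux were followed in subcutaneous adipose tissue of dairy cows around calving. They were chosen by name. Of 34 listed symbols, 33 had a row in the 6 deposited tables of 13896 genes each, and STARD4 had none. By role the list held 18 enzymes of synthesis, 5 carriers within the cell (4 of them measured), 8 genes of export and lipoprotein handling and 3 genes of storage and oxidation. The series held 15 RNA-seq libraries in 5 groups of 3, each from 3 cows. Biopsies were taken from the same animals over time, so groups at different times can hold the same cows, but the libraries could not be tied to cows and every fit treated them as independent. All cows were primiparous Prim Holstein, and the fat was a whole tissue biopsy from the dewlap. The groups were cows at -4 weeks peripartum (wkpp), before the diet experiment, cows fed a high energy (HE) diet at 1 and 16 wkpp, and cows fed a low energy (LE) diet at 1 and 16 wkpp. The HE cows are called MNEB (moderate negative energy balance) here and the LE cows SNEB (severe negative energy balance). The study defined these names by the energy balance at 1 wkpp, while the sample labels give the diet. Diet and energy balance cannot be told apart in these libraries. Cows with the more extreme energy balance in early lactation had been picked for sequencing. The 6 comparisons asked how expression differed between late gestation and early lactation, between early and later lactation, and between the energy balance groups at each time of lactation. The -4 wkpp libraries carry no diet or energy balance label, and the same 3 serve both comparisons with 1 wkpp. For these comparisons, in MNEB or SNEB cows means against that group at 1 wkpp.

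A cell makes cholesterol from acetyl-CoA in a long chain of enzymes that passes through mevalonate, farnesyl diphosphate, squalene and lanosterol. Transcription of these enzymes is driven as a set by sterol regulatory element binding proteins when membrane sterol is low. Liver X receptors respond to oxysterols and raise the export pumps. In adipocytes most cholesterol is unesterified and lies in membranes and at the lipid droplet surface, and fat is a large store of cholesterol in the body.

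Each normalized count below is the exonic reads on a gene divided by the size factor of the library, unless whole gene reads are named. Statements on the order or overlap of libraries refer to these counts. Exonic reads numbered 7.24 to 12.4 M per library at -4 wkpp, 10.5 to 13.7 M in SNEB cows and 1.94 to 7.18 M in MNEB cows. Spike-in RNA took 2.92% to 19.8% of the exonic reads in MNEB libraries and 0.192% to 1.60% in all others. The study reported total reads per library in a similar range in all groups. It reported lower aligned shares and more reads mapped to multiple places in MNEB libraries than in the rest. Adipocyte markers were present in every library, with summed normalized counts (7 of 10 genes measured) of 47825 to 56113 at -4 wkpp, 32032 to 40652 and 19416 to 27866 in SNEB cows at 1 and 16 wkpp, and 10177 to 14861 and 6090 to 18332 in MNEB cows. None of the adipocyte, macrophage, endothelium or mast cell markers was at 0 throughout a group. Macrophage markers (11 of 12) summed to 10000 to 17917 at -4 wkpp, 2893 to 10394 and 3029 to 4051 in MNEB cows, and 12539 to 27816 and 23093 to 30042 in SNEB cows. Endothelial markers (7 of 7) summed to 20097 to 25356, 32571 to 69096, 27695 to 37287, 31314 to 39058 and 23769 to 26994 in the order -4 wkpp, MNEB 1 and 16 wkpp, SNEB 1 and 16 wkpp. Skeletal muscle markers (8 of 9) summed to 1173 to 4097 in MNEB libraries and to 85.2 to 357 in the rest, with MYLPF at 0 at -4 wkpp, TNNT1 and MYLPF at 0 in MNEB 16 wkpp and MYH1 at 0 in SNEB 1 wkpp. Mast cell markers (3 of 4) summed to 247 to 514 in MNEB libraries and to 1132 to 4428 in the rest. Skin markers (5 of 6) summed to 0 to 349 and erythrocyte markers (4 of 4) to 12.2 to 334 over the 15 libraries, with KRT14 and DSG3 at 0 in SNEB 1 wkpp, HBM at 0 in all groups and HBA at 0 in both MNEB groups and SNEB 1 wkpp. Depth, spike-in share, aligned share and the adipocyte, macrophage, muscle and mast cell markers moved with the energy balance group. Their part in the differences between MNEB and other libraries was not tested, and in whole tissue fewer cells of a type and less RNA per cell cannot be told apart.

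**Figure D1:**
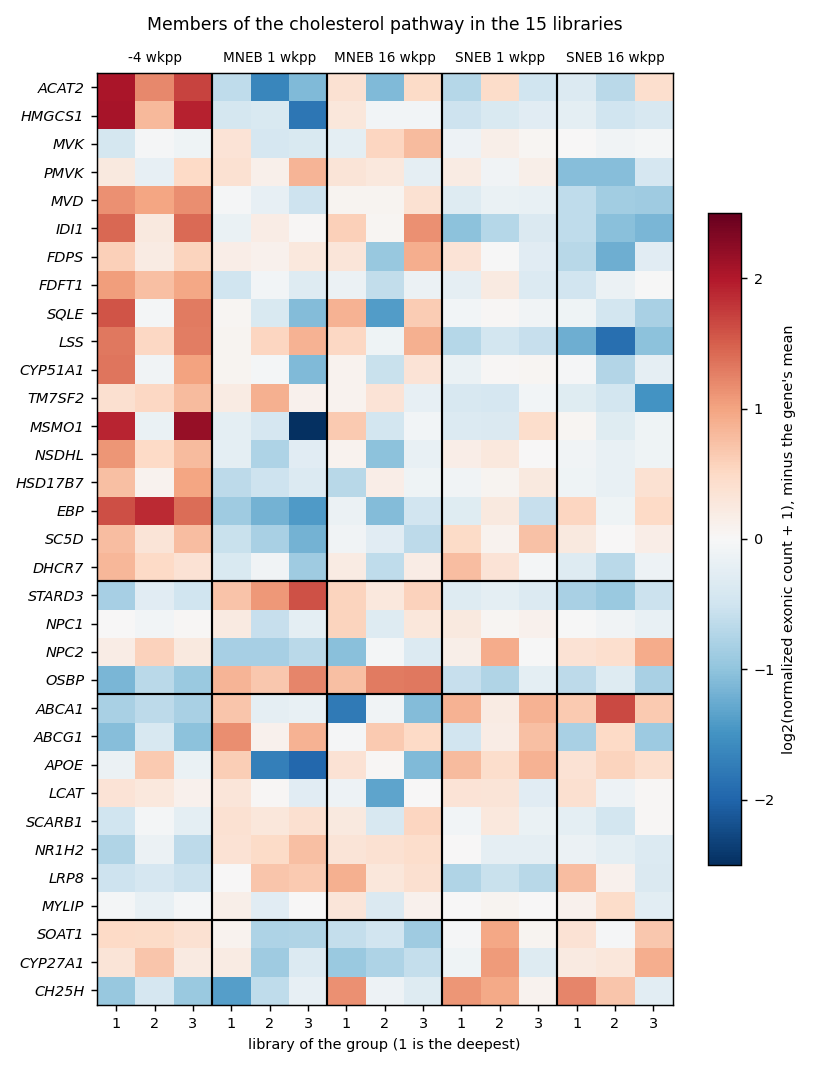
Each row is a gene and each column a library (3 per group, numbered from the deepest), with colour giving log2(normalized exonic count + 1) minus the mean of the gene over the 15 libraries, red above and blue below. Black lines part the groups and the 4 roles (synthesis, transport, export, storage). Most synthesis rows are reddest at -4 wkpp, though those of MVK and PMVK are not, and library 2 is the palest of its group there in 14 of the 18. The rows of OSBP and STARD3 are reddest in MNEB columns.

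A gene was called when its adjusted p (limma-voom, Benjamini-Hochberg over all genes tested) was below 0.01 in exonic reads and again in whole gene reads, with the same sign. Whole gene reads include the exonic reads, so these tests are not independent. Between -4 wkpp and MNEB 1 wkpp, 1 of the 33 members was called, STARD3, which was lower at -4 wkpp. Over all genes 2.65% were called in either direction and 1.29% were called lower. In exonic reads alone 7 members were higher at -4 wkpp, against 7.01% of genes, and 4 were lower, against 9.24%. Between -4 wkpp and SNEB 1 wkpp no member was called, and 0% of genes were. The same comparison gave 14 members with an unadjusted limma-voom p below 0.05, against 14.6% of genes, and limma trend on log2 counts also called 0 members. Between 1 and 16 wkpp, 0 members and 0% of genes were called in MNEB cows and in SNEB cows, with 4 and 7 members at an unadjusted p below 0.05 (12.9% and 7.37% of genes) and 0 by limma trend. Between SNEB and MNEB at 1 wkpp 0 members and 0% of genes were called, with 12 members at an unadjusted p below 0.05 (31.7% of genes) and 0 by limma trend, and in exonic reads alone OSBP was lower in SNEB, against 1.21% of genes. At 16 wkpp 3 members were called, against 5.15% of genes. CYP27A1 was higher in SNEB, against 1.61% of genes, and IDI1 and OSBP were lower, against 3.54%. In exonic reads alone CYP27A1 was higher (3.37% of genes) and IDI1, LSS, STARD3 and OSBP were lower (7.08%). With 3 libraries per group a member that was not called may still differ.

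The count of members whose 3 libraries of a group all lay on the same side of the other 3 was read against the share of all genes that did so. From -4 to 1 wkpp in MNEB cows 14 members were higher at -4 wkpp without overlap, against 22.6% of genes, and 7 were lower, against 23.4%. In SNEB cows 10 members were higher at -4 wkpp, against 10.3% of genes, and 4 were lower, against 9.34%. From 1 to 16 wkpp in MNEB cows 1 member was higher at 1 wkpp (10.0% of genes) and 2 were lower (9.65%), and in SNEB cows 8 were higher (8.02%) and 1 was lower (4.18%). Between SNEB and MNEB at 1 wkpp 7 members were higher in SNEB (18.9%) and 8 lower (20.5%), and at 16 wkpp 6 were higher (22.1%) and 9 lower (22.0%). Without MNEB 1 wkpp library 1, 16 in place of 7 were higher in SNEB at 1 wkpp, while the share of genes went from 18.9% to 27.6%. Without MNEB 16 wkpp library 2, 15 in place of 9 were lower at 16 wkpp, while the share of genes went from 22.0% to 27.9%. Of the members higher at -4 wkpp without overlap, 11 of 14 in MNEB cows and 9 of 10 in SNEB cows were enzymes of synthesis.

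The enzymes of synthesis, taken as a list, had higher values at -4 wkpp than at 1 wkpp in both groups of cows. Their median log2 fold change of -4 over 1 wkpp was 1.17 in MNEB cows and 0.91 in SNEB cows in exonic reads, against 0.03 and -0.03 over all genes tested, and 0.74 and 0.76 in whole gene reads, against 0.01 and -0.05. The log2 fold change was above 0 in 16 of 18 enzymes in the first comparison and in 17 of 18 in the second, which share the -4 wkpp libraries. In MNEB cows 11 enzymes did not overlap, all higher at -4 wkpp (ACAT2, HMGCS1, MVD, IDI1, FDFT1, MSMO1, NSDHL, HSD17B7, EBP, SC5D and DHCR7), as were 22.6% of all genes. In SNEB cows 9 did not, again all higher at -4 wkpp (ACAT2, HMGCS1, MVD, IDI1, FDFT1, LSS, TM7SF2, NSDHL and EBP), as were 10.3% of all genes. None of the 18 was called in both kinds of reads in fits of 6 libraries at full depth. In 1 fit of all 15 libraries HMGCS1, MVD, FDFT1, EBP and SC5D were called higher than in MNEB 1 wkpp (10.5% of genes called) and HMGCS1, MVD and EBP higher than in SNEB 1 wkpp (0.358%). Of the 18, 11 and 10 had an unadjusted limma-voom p below 0.05, against 41.3% and 14.6% of genes. Summed adipocyte markers were also highest at -4 wkpp, as given above, with LPL at 12654 to 24525 at -4 wkpp, 547 to 1110 in MNEB 1 wkpp and 1178 to 6182 in SNEB 1 wkpp. Of the 7 adipocyte markers tested, 7 had a log2 fold change above 0 for -4 over MNEB 1 wkpp, with a median of 2.38. For -4 over SNEB 1 wkpp it was 6 of 7, with a median of 1.39. PLIN1, the lipid droplet coat protein, had 13247 to 17785 at -4 wkpp, 6573 to 10627 in MNEB 1 wkpp and 20034 to 25470 in SNEB 1 wkpp, where every library lay above -4 wkpp. The part of the adipocyte markers in the values of the enzymes was not tested.

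At the entry of the pathway, ACAT2 joins acetyl-CoA units and HMGCS1 adds the next. HMGCS1 had 2013, 848 and 1827 normalized counts at -4 wkpp, 353, 370 and 136 in MNEB 1 wkpp, 587, 457 and 455 in MNEB 16 wkpp, 334, 367 and 396 in SNEB 1 wkpp and 408, 339 and 366 in SNEB 16 wkpp. Every -4 wkpp library lay above every lactation library. The log2 fold change of -4 over 1 wkpp was 2.35 ± 0.42 (SE) in MNEB cows, 5.11-fold, with an adjusted p of 0.00266 in exonic and 0.0237 in whole gene reads, and 2.01 ± 0.32 in SNEB cows, 4.02-fold, with adjusted p of 0.0207 and 0.0452. ACAT2 had 526, 294 and 414 at -4 wkpp, 82.3, 40.5 and 58.8 in MNEB 1 wkpp, 167, 59.1 and 179 in MNEB 16 wkpp, 77.3, 175 and 89.5 in SNEB 1 wkpp and 101, 79.6 and 172 in SNEB 16 wkpp. Its -4 wkpp libraries again lay above the other 12. The log2 fold change of ACAT2 was 2.59 ± 0.42 against MNEB 1 wkpp (adjusted p 0.00166 and 0.0167) and 1.90 ± 0.34 against SNEB 1 wkpp (0.0335 and 0.0818).

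The mevalonate enzymes differed among themselves. MVD, which removes a carboxyl group to give the isoprene unit, had 236, 210 and 239 at -4 wkpp, 104, 91.9 and 73.5 in MNEB 1 wkpp, 111, 111 and 138 in MNEB 16 wkpp, 84.3, 94.6 and 93.4 in SNEB 1 wkpp and 68.1, 57.6 and 56.8 in SNEB 16 wkpp. Its 3 libraries at -4 wkpp were close together and above all others, with a log2 fold change of 1.26 ± 0.28 over MNEB 1 wkpp (adjusted p 0.00724 and 0.0511) and 1.33 ± 0.19 over SNEB 1 wkpp (0.0127 and 0.0577). The kinases upstream of it did not follow. MVK had 173, 230 and 219 at -4 wkpp, 297, 176 and 180 in MNEB 1 wkpp, 198, 342 and 409 in MNEB 16 wkpp, 214, 259 and 242 in SNEB 1 wkpp and 236, 222 and 227 in SNEB 16 wkpp, with overlap in every comparison. PMVK had 94.4, 68.4 and 112 at -4 wkpp, 104, 86.5 and 143 in MNEB 1 wkpp, 99.7, 95.1 and 67.7 in MNEB 16 wkpp, 91.9, 74.4 and 87.5 in SNEB 1 wkpp and 37.4, 37.4 and 58.7 in SNEB 16 wkpp. The last group lay below the rest in exonic reads. In whole gene reads its library 3, at 217, lay above -4 wkpp library 2, at 199. PMVK had log2 fold changes of 0.96 ± 0.27 for SNEB 1 over 16 wkpp (adjusted p 0.662) and -1.07 ± 0.30 for SNEB over MNEB at 16 wkpp (0.0329 in exonic and 0.0858 in whole gene reads).

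IDI1, the isomerase that sets the ratio of the isoprene building blocks, was the synthesis enzyme called in a comparison. It had 507, 221 and 503 at -4 wkpp, 167, 213 and 191 in MNEB 1 wkpp, 285, 195 and 414 in MNEB 16 wkpp, 91.9, 114 and 146 in SNEB 1 wkpp and 120, 90.0 and 84.5 in SNEB 16 wkpp. Both MNEB groups lay above both SNEB groups. At 16 wkpp IDI1 was 2.90-fold lower in SNEB than in MNEB cows, a log2 fold change of -1.54 ± 0.27, with adjusted p of 0.00472 in exonic and 0.00784 in whole gene reads. The call was lost when any of the 6 libraries was left out, in fits that called 1.07% to 3.43% of genes against 5.15% with all 6, and the values ran from -1.78 to -1.36 over all 17 alternative settings. At 1 wkpp the log2 fold change was -0.69 ± 0.28 (adjusted p 0.122). FDPS, which builds farnesyl diphosphate, overlapped between the groups in all 6 comparisons.

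FDFT1 condenses farnesyl diphosphate into squalene, the first step given over to sterols. FDFT1 had 903, 731 and 848 at -4 wkpp, 307, 416 and 349 in MNEB 1 wkpp, 392, 285 and 393 in MNEB 16 wkpp, 370, 512 and 343 in SNEB 1 wkpp and 314, 394 and 432 in SNEB 16 wkpp. The 4 lactation groups overlapped one another, while -4 wkpp stood above them by 1.24 ± 0.22 log2 units in MNEB cows at 1 wkpp (adjusted p 0.00241 and 0.0254) and by 1.03 ± 0.19 in SNEB cows (0.0385 and 0.0788). LSS, which closes squalene epoxide into the sterol rings, had 463, 263 and 446 at -4 wkpp, 192, 267 and 338 in MNEB 1 wkpp, 264, 170 and 341 in MNEB 16 wkpp, 112, 134 and 123 in SNEB 1 wkpp and 78.5, 49.0 and 90.3 in SNEB 16 wkpp. In exonic reads every SNEB library was below every MNEB library and every -4 wkpp library. In whole gene reads SNEB 1 wkpp reached 330, above MNEB 16 wkpp library 2 at 318. LSS in SNEB over MNEB cows had a log2 fold change of -1.83 ± 0.31 at 16 wkpp (adjusted p 0.00376 in exonic reads and 0.0134 in whole gene reads, so not called) and of -0.98 ± 0.27 at 1 wkpp (0.0387 and 0.0985). SQLE, the squalene epoxidase between them, and CYP51A1, the lanosterol demethylase, had log2 fold changes of 1.19 ± 0.56 and 0.94 ± 0.46 for -4 over MNEB 1 wkpp (adjusted p 0.138 and 0.153), with overlap. In whole gene reads they were 0.42 ± 0.50 and 0.62 ± 0.49 (0.610 and 0.445).

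Among the later sterol enzymes, EBP, a sterol isomerase, had 306, 362 and 262 at -4 wkpp, 53.2, 43.2 and 36.7 in MNEB 1 wkpp, 90.0, 46.3 and 70.4 in MNEB 16 wkpp, 80.5, 118 and 66.0 in SNEB 1 wkpp and 144, 91.9 and 141 in SNEB 16 wkpp. The lowest -4 wkpp library lay above the highest of the other 12. EBP had the largest fold change among the enzymes in exonic reads of MNEB cows, 6.36-fold, a log2 fold change of 2.67 ± 0.37 (adjusted p 8.3e-04 in exonic and 0.0152 in whole gene reads), and 3.59-fold, 1.84 ± 0.25, in SNEB cows (0.0119 and 0.0629). MSMO1, a methyl sterol oxidase, had 681, 161 and 814 at -4 wkpp, 152, 135 and 25.7 in MNEB 1 wkpp, 283, 131 and 171 in MNEB 16 wkpp, 141, 139 and 245 in SNEB 1 wkpp and 187, 145 and 168 in SNEB 16 wkpp. Its -4 wkpp libraries spread widely, with library 2 among the lactation values, and the adjusted p was 0.0872 for -4 over MNEB 1 wkpp and 0.339 over SNEB 1 wkpp.

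SC5D, the desaturase before the last reduction, had 861, 625 and 854 at -4 wkpp, 339, 286 and 220 in MNEB 1 wkpp, 473, 411 and 317 in MNEB 16 wkpp, 697, 531 and 832 in SNEB 1 wkpp and 597, 507 and 563 in SNEB 16 wkpp. All MNEB libraries lay below the rest, and both MNEB groups overlapped. Its log2 fold change was 1.41 ± 0.25 for -4 over MNEB 1 wkpp (adjusted p 0.00245 and 0.0167) and 0.19 ± 0.22 for -4 over SNEB 1 wkpp (0.753). SNEB 1 wkpp over MNEB 1 wkpp, the test of that difference, gave 1.21 ± 0.27 (0.0195 and 0.0509). DHCR7, which makes cholesterol in the last reduction, and HSD17B7, a keto reductase, gave smaller values in the same contrast, 0.77 ± 0.33 and 0.62 ± 0.23 (0.143 and 0.103). In exonic reads the SNEB libraries lay above the MNEB libraries in both. In whole gene reads DHCR7 gave 0.43 ± 0.31 (0.440), with overlap.

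**Figure D2:**
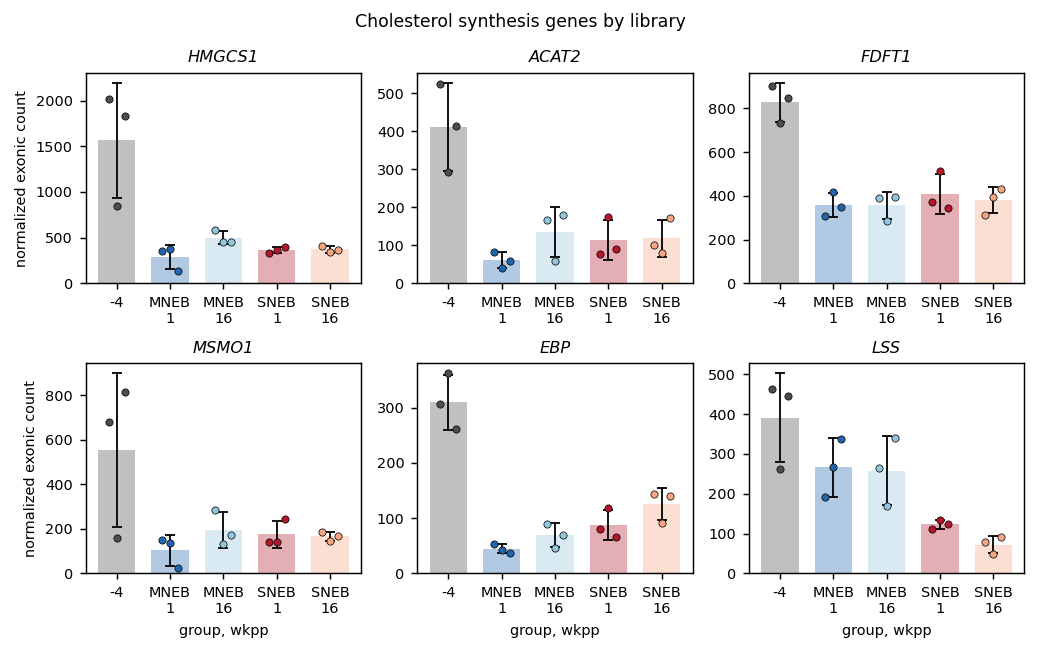
Normalized exonic counts of 6 synthesis genes (linear axis from 0) in the 5 groups, with a point per library, bars at the mean and whiskers of 1 SD (n = 3). The -4 wkpp libraries of HMGCS1, ACAT2, FDFT1 and EBP lie above all lactation libraries, and the SNEB libraries of LSS, at 49.0 to 134, lie below all MNEB libraries.

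The 3 libraries of -4 wkpp were not alike. Library 2 had the lowest value of its group in 14 of the 18 enzymes, and its summed count over them was 5365, against 9027 and 8607. Even so it was above the lactation libraries, whose sums ran from 2587 to 4265. Without that library the median log2 fold change of the enzymes was 1.35 against MNEB 1 wkpp and 1.17 against SNEB 1 wkpp, and over the other libraries left out in turn it ran from 0.94 to 1.17 and from 0.77 to 0.93. Without it, 17 members in place of 10 lay above SNEB 1 wkpp without overlap, while the share of genes went from 10.3% to 16.3%. Below SNEB 1 wkpp lay 10 in place of 4, while the genes that did so went from 966 to 2063 of 10338.

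Between 1 and 16 wkpp none of the enzymes was called. Their median log2 fold change of 1 over 16 wkpp was -0.35 in MNEB cows, where 3 of 18 were above 0, and 0.28 in SNEB cows, where 15 of 18 were above 0, against 0.01 over all genes in each. In whole gene reads it was -0.16 in MNEB cows, with 5 of 18 above 0, and 0.30 in SNEB cows. Leaving out each library in turn gave -0.48 to -0.22 in MNEB cows, with -0.23 and 7 of 18 above 0 without MNEB 16 wkpp library 1 and -0.22 without library 3, and 0.19 to 0.36 in SNEB cows. In exonic reads HMGCS1 and MVD were lower at 1 wkpp in MNEB cows without overlap, as were 9.65% of all genes tested. PMVK, MVD, SQLE, LSS, NSDHL and DHCR7 were higher at 1 wkpp in SNEB cows without overlap, as were 8.02% of all genes tested. With reads thinned to the depth of the shallowest library, the count over all members in SNEB cows was 2 in place of 8, while the share of genes was 7.57% in place of 8.02%. The difference between the changes of SNEB and MNEB cows, tested as an interaction over 12 libraries, was above 0 for all 18 enzymes and for 5358 of 10428 genes, with a median of 0.75 in exonic and 0.58 in whole gene reads, against 0.01 and 0.05 over all genes. No enzyme and 0% of genes were called in that test, by limma-voom or limma trend, and 3 enzymes had an unadjusted limma-voom p below 0.05, against 4.89% of genes. These were DHCR7 at 1.13 ± 0.43, MVD at 0.87 ± 0.33 and SC5D at 0.76 ± 0.32, with adjusted p of 0.987, 0.987 and 0.991. With thinned reads, 16 of 18 were above 0, with a median of 0.66. Adipocyte, macrophage and endothelial markers had median log2 fold changes of 1 over 16 wkpp of 0.13, 0.73 and 0.53 in MNEB cows. In SNEB cows these medians were 0.45, -0.50 and 0.49, and in the interaction 0.14, -1.27 and -0.01. The part of these markers in the values of the enzymes was not tested. For MVD in exonic reads the 1 wkpp libraries lay below those of 16 wkpp in MNEB cows and above them in SNEB cows, without overlap in either. In whole gene reads the MNEB groups overlapped, with MNEB 1 wkpp up to 134 and MNEB 16 wkpp from 133.

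Among the carriers within the cell, OSBP and STARD3 had higher values in MNEB libraries than in all others. OSBP carries cholesterol from the endoplasmic reticulum to the Golgi in exchange for a phosphoinositide. OSBP had 548, 762 and 641 at -4 wkpp, 2206, 1953 and 2829 in MNEB 1 wkpp, 2051, 2981 and 3019 in MNEB 16 wkpp, 814, 727 and 1023 in SNEB 1 wkpp and 774, 979 and 692 in SNEB 16 wkpp. All 6 MNEB libraries lay above the other 9. OSBP was 3.33-fold lower in SNEB than in MNEB cows at 16 wkpp, a log2 fold change of -1.74 ± 0.21, with adjusted p of 9.5e-04 and 0.00617. Leaving out a library in turn lost the call for 5 of the 6, in fits that called 1.07% to 3.43% of genes against 5.15%. At 1 wkpp the contrast was -1.44 ± 0.22, with adjusted p of 0.00970 in exonic and 0.0603 in whole gene reads, and -4 over MNEB 1 wkpp gave -1.84 ± 0.22 (4.3e-04 and 0.0197). OSBP at -4 over SNEB 1 wkpp gave -0.39 ± 0.19 (0.406).

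STARD3 tethers late endosomes to the endoplasmic reticulum and binds cholesterol. Its normalized counts were 275, 399 and 347 at -4 wkpp, 796, 1032 and 1477 in MNEB 1 wkpp, 717, 583 and 731 in MNEB 16 wkpp, 388, 413 and 385 in SNEB 1 wkpp and 277, 257 and 338 in SNEB 16 wkpp. The 2 MNEB groups again lay above all others, and MNEB 1 wkpp above MNEB 16 wkpp. STARD3 was 3.13-fold lower at -4 wkpp than in MNEB 1 wkpp, a log2 fold change of -1.65 ± 0.26, with adjusted p of 0.00151 and 0.00854. The call was lost when any of the 6 libraries was left out, in fits that called 0 to 161 genes against 285 with all 6, and the values ran from -1.87 to -1.34 over all settings. In SNEB over MNEB cows STARD3 gave -1.41 ± 0.24 at 1 wkpp (0.0101 and 0.0350) and -1.23 ± 0.18 at 16 wkpp (0.00189 and 0.0106), and neither met the rule.

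NPC1 and NPC2 hand cholesterol out of late endosomes, NPC2 as the soluble and NPC1 as the membrane partner. They differed in their pattern. NPC2 had 1655, 2184 and 1735 at -4 wkpp, 821, 821 and 915 in MNEB 1 wkpp, 706, 1403 and 1143 in MNEB 16 wkpp, 1602, 2773 and 1442 in SNEB 1 wkpp and 1870, 1936 and 2759 in SNEB 16 wkpp, with all MNEB libraries below the rest. Its log2 fold change was 1.12 ± 0.20 for -4 over MNEB 1 wkpp (adjusted p 0.00261 and 0.0365), 1.13 ± 0.27 and 1.07 ± 0.28 for SNEB over MNEB at 1 and 16 wkpp (0.0253 and 0.0247 in exonic reads). NPC1 had 653, 621 and 663 at -4 wkpp, 760, 435 and 547 in MNEB 1 wkpp, 949, 519 and 785 in MNEB 16 wkpp, 765, 674 and 695 in SNEB 1 wkpp and 642, 609 and 569 in SNEB 16 wkpp, and its log2 fold changes in exonic reads ran from -0.35 to 0.29. Summed macrophage markers were lower in every MNEB 16 wkpp library than in every -4 wkpp and SNEB library. In MNEB 1 wkpp they were 10394, 2893 and 6011, which overlapped -4 wkpp (10632, 17917 and 10000). Of the 10 macrophage markers tested, 10 had a log2 fold change above 0 for -4 over MNEB 1 wkpp. Their median was 1.00 in exonic and 0.42 in whole gene reads. Their part in the NPC2 values was not tested.

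**Figure D3:**
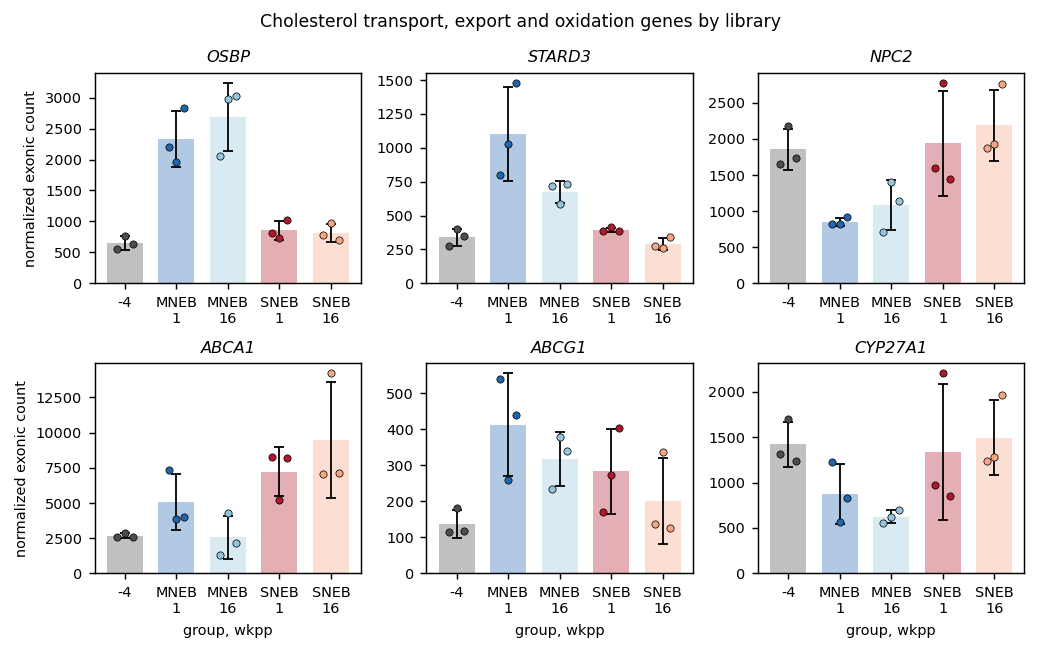
Normalized exonic counts of 6 transport, export and oxidation genes (linear axis from 0) in the 5 groups, with a point per library, bars at the mean and whiskers of 1 SD (n = 3). OSBP at 1953 to 3019 and STARD3 at 583 to 1477 in MNEB libraries lie above every other library, and NPC2 at 706 to 1403 lies below.

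Of the export pumps, ABCA1, which loads cholesterol onto apolipoprotein A-I, had 2586, 2875 and 2579 at -4 wkpp, 7338, 3863 and 3972 in MNEB 1 wkpp, 1327, 4274 and 2131 in MNEB 16 wkpp, 8255, 5224 and 8206 in SNEB 1 wkpp and 7083, 14197 and 7135 in SNEB 16 wkpp. Both 1 wkpp groups lay above -4 wkpp, and SNEB 16 wkpp above MNEB 16 wkpp. The log2 fold change of -4 over 1 wkpp was -1.40 ± 0.21 in SNEB cows (adjusted p 0.0151 and 0.0536) and -0.85 ± 0.26 in MNEB cows (0.0329 and 0.251). ABCA1 in SNEB over MNEB cows at 16 wkpp gave 1.92 ± 0.46, 3.79-fold (0.0166 and 0.0217). When SNEB 1 wkpp library 2 was left out, ABCA1 was called lower at -4 than at SNEB 1 wkpp, in a fit that called 1.57% of genes against 0% with it. ABCG1, the pump that passes cholesterol to mature HDL, had 114, 181 and 117 at -4 wkpp, 539, 259 and 441 in MNEB 1 wkpp, 235, 378 and 341 in MNEB 16 wkpp, 171, 273 and 404 in SNEB 1 wkpp and 136, 337 and 127 in SNEB 16 wkpp. Only the MNEB groups lay wholly above -4 wkpp, and -4 over MNEB 1 wkpp gave -1.59 ± 0.32 in exonic reads (0.00440) and -0.83 ± 0.46 in whole gene reads (0.279).

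The liver X receptors drive both pumps. NR1H2, the widely expressed form, had 687 to 1045 at -4 wkpp, 1487 to 1955 in MNEB 1 wkpp, 1443 to 1573 in MNEB 16 wkpp and 916 to 1166 in the SNEB libraries. All MNEB libraries were above all others, with -1.05 ± 0.23 for -4 over MNEB 1 wkpp (adjusted p 0.00653 and 0.0388) and -0.62 ± 0.15 for SNEB over MNEB at 16 wkpp (0.0159 and 0.0136). NR1H3, the other liver X receptor, was not on the list. It was the gene called among 31 further genes of sterol sensing, lipoprotein uptake and isoprenoid use (26 measured, 25 or 26 tested in a comparison). The call came in the comparison of -4 with MNEB 1 wkpp, where 2.65% of all genes were called. NR1H3 had 313, 355 and 305 at -4 wkpp, 912, 913 and 922 in MNEB 1 wkpp, 436, 517 and 303 in MNEB 16 wkpp, 586, 447 and 637 in SNEB 1 wkpp and 274, 336 and 416 in SNEB 16 wkpp. It was lower at -4 wkpp than in MNEB 1 wkpp, with a log2 fold change of -1.50 ± 0.19 (5.2e-04 and 0.00804), and gave -0.76 ± 0.19 against SNEB 1 wkpp (0.0944). The median of the further genes was 0.18 in the MNEB and 0.12 in the SNEB comparison with -4 wkpp in exonic reads, against 0.03 and -0.03 over all genes, and 0.13 and 0.04 in whole gene reads, against 0.01 and -0.05.

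Neither the lipoprotein genes nor their receptors gave a call. APOE, the apolipoprotein that binds remnant receptors, had 4704, 8151 and 4650 at -4 wkpp, 7927, 1586 and 1334 in MNEB 1 wkpp, 6699, 5277 and 2399 in MNEB 16 wkpp, 8942, 7037 and 9429 in SNEB 1 wkpp and 6644, 7582 and 6981 in SNEB 16 wkpp. MNEB 1 wkpp library 1 stood far above its group, and APOE in SNEB over MNEB cows at 1 wkpp gave 1.73 ± 0.58 (adjusted p 0.0765 and 0.204). Without that library APOE was called higher in SNEB cows, in a fit that called 3.48% of genes against 0% with it. LCAT, which esterifies cholesterol on HDL, had 657, 622 and 556 at -4 wkpp, 635, 524 and 426 in MNEB 1 wkpp, 475, 206 and 517 in MNEB 16 wkpp, 652, 644 and 426 in SNEB 1 wkpp and 682, 474 and 525 in SNEB 16 wkpp, with overlap throughout. SCARB1, the HDL receptor, had log2 fold changes of -0.63 ± 0.21 for -4 over MNEB 1 wkpp (0.0468) and -0.28 ± 0.19 for -4 over SNEB 1 wkpp (0.584).

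LRP8, a receptor for apolipoprotein E, had 48.4, 51.9 and 47.6 at -4 wkpp, 69.8, 113 and 110 in MNEB 1 wkpp, 130, 84.8 and 92.1 in MNEB 16 wkpp, 40.5, 47.0 and 42.4 in SNEB 1 wkpp and 119, 74.7 and 53.6 in SNEB 16 wkpp. Its lowest group was SNEB 1 wkpp, with -1.01 ± 0.33 against MNEB 1 wkpp (adjusted p 0.0722) and -0.88 ± 0.35 against SNEB 16 wkpp (0.667). MYLIP, a ubiquitin ligase that removes lipoprotein receptors, had 1658, 1502 and 1663 at -4 wkpp, 1890, 1418 and 1734 in MNEB 1 wkpp, 2106, 1344 and 1839 in MNEB 16 wkpp, 1735, 1798 and 1726 in SNEB 1 wkpp and 1841, 2355 and 1426 in SNEB 16 wkpp. Its fitted change in exonic reads was between -0.13 and 0.09 log2 units in the 6 comparisons.

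Among the genes of storage and oxidation, CYP27A1, a mitochondrial hydroxylase that makes an oxysterol, was called. CYP27A1 had 1318, 1702 and 1239 at -4 wkpp, 1222, 567 and 834 in MNEB 1 wkpp, 556, 617 and 701 in MNEB 16 wkpp, 973, 2200 and 848 in SNEB 1 wkpp and 1236, 1284 and 1966 in SNEB 16 wkpp. At 16 wkpp it was 2.38-fold higher in SNEB than in MNEB cows, a log2 fold change of 1.25 ± 0.22, with adjusted p of 0.00418 and 0.00887, and the call was lost when any of the 6 libraries was left out, in the fits that called 1.07% to 3.43% of genes. Macrophage markers differed in the same direction at 16 wkpp, 23093 to 30042 in SNEB against 3029 to 4051 in MNEB cows, and their part in this value was not tested.

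SOAT1, which esterifies cholesterol for storage, had 254, 253 and 235 at -4 wkpp, 193, 105 and 107 in MNEB 1 wkpp, 120, 129 and 97.5 in MNEB 16 wkpp, 177, 356 and 190 in SNEB 1 wkpp and 233, 178 and 288 in SNEB 16 wkpp. SOAT1 in SNEB over MNEB cows at 16 wkpp gave 0.96 ± 0.27 (adjusted p 0.0325 and 0.0773). CH25H, a hydroxylase best known from macrophages, was a low-count gene with 25.9, 37.9 and 26.2 at -4 wkpp, 18.8, 32.4 and 44.1 in MNEB 1 wkpp, 113, 46.3 and 40.6 in MNEB 16 wkpp, 110, 99.0 and 54.2 in SNEB 1 wkpp and 120, 82.7 and 41.9 in SNEB 16 wkpp. SNEB 1 wkpp lay above -4 and MNEB 1 wkpp, with a log2 fold change of -1.51 ± 0.39 for -4 over SNEB 1 wkpp (adjusted p 0.107) and of 1.72 ± 0.58 for SNEB over MNEB at 1 wkpp (0.0747).

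**Figure D4:**
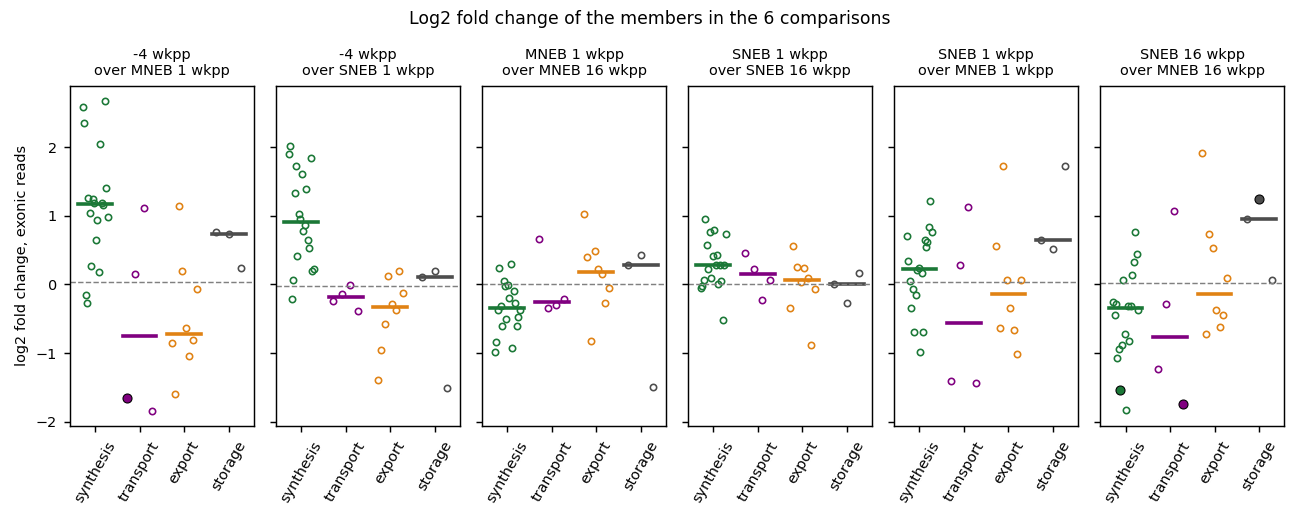
Log2 fold change in exonic reads of the 33 members in the 6 comparisons, one panel each, by role (18 synthesis, 4 transport, 8 export, 3 storage), with a filled point for a called member, a bar at the median of the role and a dashed line at the median of all genes tested. The synthesis medians are 1.17 and 0.91 in the panels of -4 over 1 wkpp and lie between -0.35 and 0.28 in the other panels.

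Exonic and whole gene reads did not always give the same size of change. The share of exonic reads among whole gene reads gives the relation of both. OSBP had 49.9% ± 0.964 (SD, n = 3) of its whole gene reads in exons at -4 wkpp, 81.3% ± 8.52 in MNEB 1 wkpp, 76.0% ± 8.34 in MNEB 16 wkpp, 52.4% ± 1.68 in SNEB 1 wkpp and 49.8% ± 4.85 in SNEB 16 wkpp. The contrast of OSBP between SNEB and MNEB at 1 wkpp was -1.44 in exonic and -0.86 in whole gene reads. ABCG1 went the same way, from 18.9% ± 4.18 at -4 wkpp to 34.7% ± 7.61 in MNEB 1 wkpp. ACAT2 went the other way, from 89.4% ± 3.68 at -4 wkpp to 51.6% ± 12.9 in MNEB 1 wkpp, and so did MSMO1, from 77.8% ± 3.95 to library values of 52.3%, 41.0% and 13.5%. MVD stayed between 71.6% and 86.4% in the group means. Over all genes the share ran from 39.0% to 59.8% in the 15 libraries, with the MNEB libraries between 47.1% and 59.8%.

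**Figure D5:**
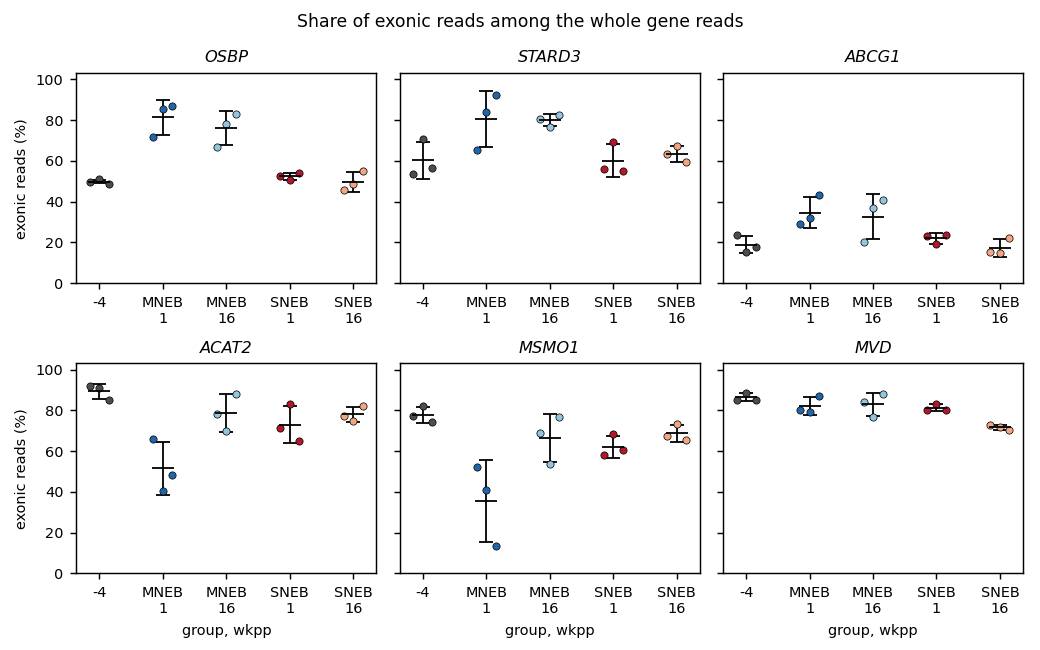
Share of exonic reads among the whole gene reads, in percent on an axis from 0, for 6 members in the 5 groups, with a point per library, a dash at the mean and whiskers of 1 SD (n = 3). OSBP is at 66.8% to 86.9% in MNEB libraries and at 45.5% to 55.1% in the rest, whereas ACAT2 and MSMO1 are lowest in MNEB 1 wkpp.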

How the data were processed

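Total RNA from the fat of 3 cows per group was depleted of ribosomal RNA and sequenced with a stranded kit. The authors used bcl2fastq 2.15.0, Cutadapt 1.3, TopHat2 on bosTau8, HTSeq and DESeq2, and counted reads on exons and on the entire gene. The strand setting of the counting is not given in the sources used here. The 6 deposited tables (1 per comparison, 13896 genes and 92 spike-ins) give, per the file headers, the mean normalized count over 6 libraries, in exonic and whole gene reads. They also hold the fold changes, standard errors, statistics, p-values and adjusted p-values of the authors, which were not used.

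Each deposited mean is the average of whole reads divided by size factors, written to 15 digits. Whole reads per library were recovered by solving for the size factors (sympy 1.14.0, Python 3.11.15), for 13966 of 13988 features in exonic reads (99.84%) and 13958 in whole gene reads (99.79%), at a relative residual of at most 2e-14. The 33 members were among them, and 13872 genes were recovered in both. Recovered libraries carry no sample number, so they are numbered by depth within a group and are not tied to a cow. Counts per library were scaled by median of ratios over all 15 libraries. Genes with a mean normalized exonic count of at least 10 over the 6 libraries were tested with limma-voom (limma 3.58.1, R 4.3.3), 2 groups per fit, adjusted p below 0.01 in both kinds of reads, and 12 libraries for the interaction. All tests were two-sided. With 3 against 3 libraries an exact permutation test cannot go below p = 0.100, so none was run. The scripts were tested on simulated data with known changes. Over the 6 comparisons the calling rule found 0% to 2.99% of the simulated 2-fold changes. It found 32.8% to 55.2% of the 4-fold and 56.1% to 83.3% of the 8-fold changes. Alternatives were whole gene or exonic reads alone, adjusted p below 0.05, no filter, other scalings, limma trend with pseudocounts of 1 and 0.1, all 15 libraries in 1 fit, leaving out each library and, chosen after seeing the data, reads thinned to the shallowest library and the size factors of each deposited table.

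Members called in a comparison, or with the largest or smallest absolute log2 fold change of their role in a comparison, are given in every library. MVD and NR1H3 were added, NR1H3 as the further pathway gene that was called. Members and lists were chosen with earlier results of these data known. Gene positions are not given, because the annotation at hand is of another assembly.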

Additional observations from a re-analysis of the deposited data

How the results depend on the processing

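The counts of called members depended on the settings, as did the share of all genes called, which is given in parentheses. For -4 over MNEB 1 wkpp, 1 member was called (2.65% of genes), against 11 in exonic reads alone (16.3%), 9 at an adjusted p below 0.05 (12.4%), 8 with all 15 libraries in 1 fit (10.5%, with HMGCS1, MVD, FDFT1, EBP and SC5D higher and STARD3, NR1H2 and OSBP lower), 2 with thinned reads (4.62%, with ACAT2 and EBP higher and STARD3 no longer called), 0 without the filter (0.772%) and 0 with limma trend at a pseudocount of 1 (1.55%). For -4 over SNEB 1 wkpp the count of 0 became 1 at an adjusted p below 0.05 (HMGCS1, with 0.764% of genes) and 3 in the fit of 15 libraries (HMGCS1, MVD and EBP, with 0.358%). For SNEB over MNEB at 1 wkpp the count of 0 became 1 in exonic reads (1.80%), 1 at an adjusted p below 0.05 (3.09%) and 2 in the fit of 15 libraries (3.43%). At 16 wkpp 3 members (5.15%) became 5 in exonic reads (10.5%), 8 at an adjusted p below 0.05 (14.8%), 5 in the fit of 15 libraries (5.56%, with ABCA1 higher, IDI1, LSS, STARD3 and OSBP lower and CYP27A1 no longer called), and 0 without the filter (2.06%), with limma trend (1.42% and 2.83% at pseudocounts of 1 and 0.1) and with thinned reads (2.47%). Leaving out each library gave 0 to 0 (0% to 1.49% of genes), 0 to 1 (0% to 1.57%), 0 to 2 (0% to 3.48%) and 0 to 1 calls (1.07% to 3.43%) in these 4 comparisons, with 2 calls (APOE higher, STARD3 lower in SNEB) without MNEB 1 wkpp library 1. The comparisons of 1 with 16 wkpp and the interaction gave 0 under every setting run. The cause of these moves was not tested.

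The 17 fold changes followed were those called or with an adjusted p below 0.01 in exonic reads, a choice that leaves little room for a change of direction. Of their 289 values under other settings, 214 kept their side of the threshold, 39 lost and 36 gained the call. In MNEB cows the members lower at 1 than at 16 wkpp without overlap numbered 2 (9.65% of genes), and 7 (18.3%), 6 (15.3%), 12 (14.2%) and 4 (13.7%) without MNEB 1 wkpp library 1 and MNEB 16 wkpp libraries 1, 2 and 3. No paired analysis was possible because the recovered libraries carry no replicate numbers or cow identities. The depth of the MNEB libraries, down to 1.94 M exonic reads, limits low-count members such as CH25H. Depth and the lower aligned share of the MNEB libraries cannot be told apart from the energy balance group.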
